A study of Mus musculus with 36 samples.

Results

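Genes of the podocyte, a cell type that the Cre line is not meant to reach, were followed in mouse kidneys in which Pkd1 or Pkd2 is deleted in the collecting duct. The members are Nphs1, Podxl, Synpo, Ptpro, Wt1 and Cd2ap, 6 genes of the 20454 in the count table, and each was taken by its symbol through the RefSeq transcript with the highest mean count. Counts were found for 5 of the 6, and all 5 passed the filter on low counts in both models. The deposited table gives the reads counted on each RefSeq transcript in 36 kidney libraries, 3 for each of 12 groups. WT mice carry floxed alleles without the transgene (Pkd1f/f or Pkd2f/f) and KO mice carry the same floxed alleles with HoxB7-Cre (Pkd1f/f:HoxB7-Cre or Pkd2f/f:HoxB7-Cre), all on a C57BL/6 background. Kidneys were taken at postnatal day 1 (P1), 3 (P3) and 7 (P7). HoxB7-Cre is active in the collecting duct, so the RNA of a KO kidney is a mixture of deleted and undeleted cells.

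Podocytes are the epithelial cells that cover the glomerular capillaries. Their interlocking foot processes are bridged by the slit diaphragm, which together with the glomerular basement membrane and the fenestrated endothelium filters the blood. Glomeruli are still being added to the mouse kidney at birth, and podocytes mature in the first days of life. Nphs1 encodes nephrin, the adhesion molecule that spans the slit diaphragm, and Cd2ap encodes an adaptor that ties nephrin to actin. Podxl encodes podocalyxin, the negatively charged sialomucin of the apical surface, which vascular endothelium also makes. Synpo encodes synaptopodin, an actin-binding protein of the foot process, Ptpro a receptor tyrosine phosphatase of the apical surface, and Wt1 the zinc-finger transcription factor that nephron progenitors carry first and podocytes retain.

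Promoter sequences were looked up to describe the members outside the readout. RefSeq start-site windows of 300 bases (250 before a start and 50 after it, assembly GRCm38.p6) were found for 3 of the 6 members, Nphs1, Cd2ap and Ptpro. The windows of Nphs1 (chr7:30459808-30460107, plus strand), the slit diaphragm gene that rose with age, and of Cd2ap (chr17:42876375-42876674, minus strand), the adaptor that did not pass the test in any comparison, are shown 5′ to 3′ with CG dinucleotides in capitals.
Nphs1: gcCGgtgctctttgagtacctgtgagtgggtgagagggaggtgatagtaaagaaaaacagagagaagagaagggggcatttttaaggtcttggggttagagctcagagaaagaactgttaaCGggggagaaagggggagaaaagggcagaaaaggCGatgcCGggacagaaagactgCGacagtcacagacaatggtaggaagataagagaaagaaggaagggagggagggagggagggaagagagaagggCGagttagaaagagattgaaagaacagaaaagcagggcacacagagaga
Cd2ap: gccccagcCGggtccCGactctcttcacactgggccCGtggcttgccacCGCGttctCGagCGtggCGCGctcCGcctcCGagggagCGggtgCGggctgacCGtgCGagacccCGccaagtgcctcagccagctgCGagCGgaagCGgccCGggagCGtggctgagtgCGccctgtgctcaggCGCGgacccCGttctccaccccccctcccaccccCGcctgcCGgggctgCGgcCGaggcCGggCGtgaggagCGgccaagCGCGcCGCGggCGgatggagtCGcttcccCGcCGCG

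The Nphs1 window is 49.7% G and C and holds 6 CG dinucleotides, and 47.9% of 32851 mouse windows of the same length hold as many or fewer. The Cd2ap window is 77.0% G and C and holds 41 CG dinucleotides, as many as or more than 97.0% of the windows. The Ptpro window holds 5, and 43.6% of the windows hold as many or fewer, so it is close to that of Nphs1. The windows of Nphs1 and Cd2ap lie within the gene spans given below. The letters GCGNGGG, a core shared by WT1 and EGR binding motifs, were searched on both strands. They occur 1 time in the Cd2ap window and 0 times in those of Nphs1 and Ptpro, against 23.2% of all windows with a match. These counts describe the letters of the windows only.

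Library totals ran from 7179152 to 15850818 counts, with the lowest in a Pkd1 WT kidney at P1. Values are given in counts-per-million units (CPM) scaled by TMM factors within a model, with mean ± SD over the 3 kidneys of a group, and fold changes are log2 values of edgeR's quasi-likelihood test with their standard errors (SE) and with p adjusted over all transcripts tested. A gene is said to rise or fall only with an adjusted p under 0.05. Where groups are said not to overlap, the share of all transcripts that do not overlap was not counted, so this describes the values only. Counts on Y-linked genes were present in 18 of the 36 libraries and did not fall evenly over the groups. They were present in all 3 Pkd1 KO kidneys and in 0 of 3 Pkd1 WT kidneys at P7, so that sex and genotype cannot be told apart there. At P7 in the Pkd2 model they were present in all 3 KO and in 2 of 3 WT kidneys. In the Pkd1 model only the WT kidneys at P1 were mixed, with Y-linked counts absent from replicate 2, the library with the lowest total. A Y-linked covariate in that model therefore rests on this group alone. A call lost with it can reflect lost precision, and such a fit cannot settle the part of sex. The deleted gene was a weak check of the labels, since Pkd1 in Pkd1 KO kidneys at P7 stood at 258.8 ± 31.1 CPM against 241.9 ± 13.3 in WT (log2 fold change 0.10, SE 0.12, adjusted p = 0.595 in edgeR's test). Pkd2 in Pkd2 KO kidneys at P7 fell from 328.8 ± 9.49 to 268.7 ± 7.38 CPM (log2 fold change -0.29, SE 0.05, adjusted p = 0.0122 in edgeR's test).

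Podocyte RNA was plainly detected. Per kilobase, Podxl was the most abundant member in all 12 groups, and Nphs1 was the least with Synpo taken as follows. For Synpo, whose used transcript shares part of its exons with another RefSeq transcript, the level was taken per kilobase of the 2682 exon bases that no other transcript of the gene covers. In Pkd1 WT kidneys at P1 the levels per kilobase were 133.8 ± 7.68 CPM for Podxl, 97.5 ± 19.97 for Wt1, 59.0 ± 4.44 for Cd2ap, 34.1 ± 4.20 for Synpo and 18.7 ± 3.57 for Nphs1. By P7 the order in the same genotype had changed to 217.0 ± 37.1 for Podxl, 78.2 ± 31.2 for Synpo, 53.4 ± 11.2 for Wt1, 52.4 ± 9.84 for Cd2ap and 41.8 ± 9.23 for Nphs1. At P7 Synpo, Wt1 and Cd2ap did not differ beyond their spread, and the step from Cd2ap to Nphs1 was about as large as their SDs. At P1 each step was larger than the SDs of both neighbours. Over its whole transcript of 5060 bases, Synpo had 18.1 CPM per kilobase at P1 and 41.5 at P7 in Pkd1 WT kidneys. These values lie just below those of Nphs1 (18.7 and 41.8). The place of Synpo and the change of order thus rest on the choice of length.

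Ptpro could not be measured. Its 4 RefSeq transcripts were listed at 0 in every one of the 36 libraries, although podocytes express the gene. The transcripts overlap almost fully, with 131, 16, 0 and 0 exon bases that belong to 1 transcript alone. Genes with at least 4 transcripts in the table were at 0 in every library in 29.1% of cases, against 15.3% of genes with 1 transcript. Vegfa of podocytes and Pecam1 of endothelium, each with several transcripts in the table, were also listed at 0. Ptpro entered no comparison and its 0 was not read as a level. Whether reads shared by overlapping transcripts were left out of the counts was not tested. Synpo also has overlapping transcripts, with 72053 counts on the one used (NM_177340) and 1815 on the other (NM_001109975).

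The first comparison asked how the members changed as the WT kidney matured. Between P1 and P7 Nphs1, Podxl and Synpo rose, Wt1 fell and Cd2ap did not pass the test, in WT kidneys of both models. Thus 3 of the 5 tested members were higher, where 8.86% of 12527 transcripts were called higher in the Pkd1 model and 9.02% of 12633 in the Pkd2 model, and 1 was lower, where 9.07% and 10.2% were. Calls in either direction made up 17.9% and 19.2% of the transcripts. The median change of the tested members was 0.70 on the log2 scale in both models, beside 0.01 over all transcripts tested. In whole kidneys, more podocytes and more RNA per podocyte cannot be told apart. Y-linked counts were present in 2 of 3 Pkd1 WT kidneys at P1 and in 0 of 3 at P7, and with them as a covariate 0 of the 4 Pkd1 calls remained. The log2 changes were then 1.42 for Nphs1, 0.72 for Podxl, 1.39 for Synpo and -0.77 for Wt1, with adjusted p from 0.0509 to 0.199. The covariate rests on the P1 kidneys alone, since Y-linked counts were uniform at P3 and at P7.

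Nphs1 (NM_019459, gene at chromosome 7, 30458207 to 30488623 in GRCm38.p6, the assembly of mm10) stood at 82.6, 71.8 and 104.1 CPM in the Pkd1 WT kidneys at P1 and at 209.9, 143.9 and 223.4 at P7. In the Pkd2 WT kidneys it went from 142.2, 115.5 and 84.6 CPM to 244.2, 247.0 and 208.0. The groups of each model did not overlap. The log2 change was 1.16 (SE 0.20, adjusted p = 0.00376 in edgeR's test) in the Pkd1 model and 1.03 (SE 0.19, adjusted p = 0.00736) in the Pkd2 model. An annotated antisense RNA, Nphs1os, lies within the gene, has no row of its own in the table, and its reads would add to these counts if the libraries did not keep strand.

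Podxl (NM_013723, gene at chromosome 6, 31519493 to 31563937) had 684.3, 709.3 and 765.0 CPM at P1 and 1350, 954.5 and 1198 CPM at P7 in Pkd1 WT kidneys. The Pkd2 WT kidneys had 912.6, 880.8 and 668.7 CPM at P1 and 1361, 1455 and 1181 CPM at P7. Again every P7 kidney was above every P1 kidney of its model. The log2 changes were 0.70 (SE 0.13, adjusted p = 0.00559) and 0.70 (SE 0.16, adjusted p = 0.0173 in edgeR's test). For Pkd2 WT kidneys the call was lost without P1 replicate 2 or 3 or P7 replicate 1 or 2, with adjusted p up to 0.0655.

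Synpo (NM_177340, gene at chromosome 18, 60593981 to 60660173) rose as well. Pkd1 WT kidneys had 91.8, 80.2 and 102.7 CPM at P1, 122.1, 108.7 and 128.1 at P3 and 195.7, 134.1 and 299.6 at P7. The 3 P7 kidneys were far apart, with replicate 3 the highest. Pkd2 WT kidneys were tighter at P7, with 204.6, 224.7 and 175.7 CPM after 117.5, 111.2 and 83.4 at P1. The log2 change from P1 to P7 was 1.19 (SE 0.24, adjusted p = 0.00759) in the Pkd1 model and 0.96 (SE 0.14, adjusted p = 0.00288 in edgeR's test) in the Pkd2 model.

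Wt1 (NM_144783, gene at chromosome 2, 105126529 to 105173614) went the other way. In Pkd1 WT kidneys it stood at 252.4, 280.8 and 370.6 CPM at P1 and at 192.1, 125.9 and 177.0 at P7, and in Pkd2 WT kidneys at 245.2, 287.9 and 296.2 and then 168.6, 179.8 and 138.8. No P7 kidney reached the lowest P1 kidney. The log2 changes were -0.87 (SE 0.21, adjusted p = 0.0164) and -0.77 (SE 0.13, adjusted p = 0.00479 in edgeR's test). Without P1 replicate 3 the Pkd1 call of Wt1 was lost, at -0.69 and adjusted p = 0.0550. Nephron progenitor genes moved with it. Of 8 tested, 4 were lower in Pkd1 WT and 5 in Pkd2 WT kidneys at P7, and 0 were higher. Over all transcripts 9.07% and 10.2% were called lower. In Pkd1 WT kidneys the summed level of that list fell from between 537.6 and 589.8 CPM at P1 to between 216.0 and 292.4 CPM at P7. In Pkd2 WT kidneys it fell from between 431.6 and 565.6 CPM to between 227.8 and 248.9 CPM. Sall1, the gene of the list with the highest counts, fell by 0.93 and 0.99 on the log2 scale, and Six2, its defining marker, went from means of 73.4 and 66.9 CPM to 0.388 and 0.0979 CPM. The part of progenitors in the fall of Wt1 was not tested.

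Cd2ap (NM_009847, gene at chromosome 17, 42748887 to 42876707) had 316.3 ± 23.8 CPM at P1 and 281.1 ± 52.8 at P7 in Pkd1 WT kidneys, and 283.9 ± 13.8 and 308.1 ± 43.9 CPM in Pkd2 WT kidneys (n = 3 each). The log2 changes were -0.17 (SE 0.13, adjusted p = 0.393) and 0.12 (SE 0.11, adjusted p = 0.492 in edgeR's test), of opposite sign. Its means over the 12 groups ran only from 237.8 to 316.5 CPM.

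**Figure D1:**
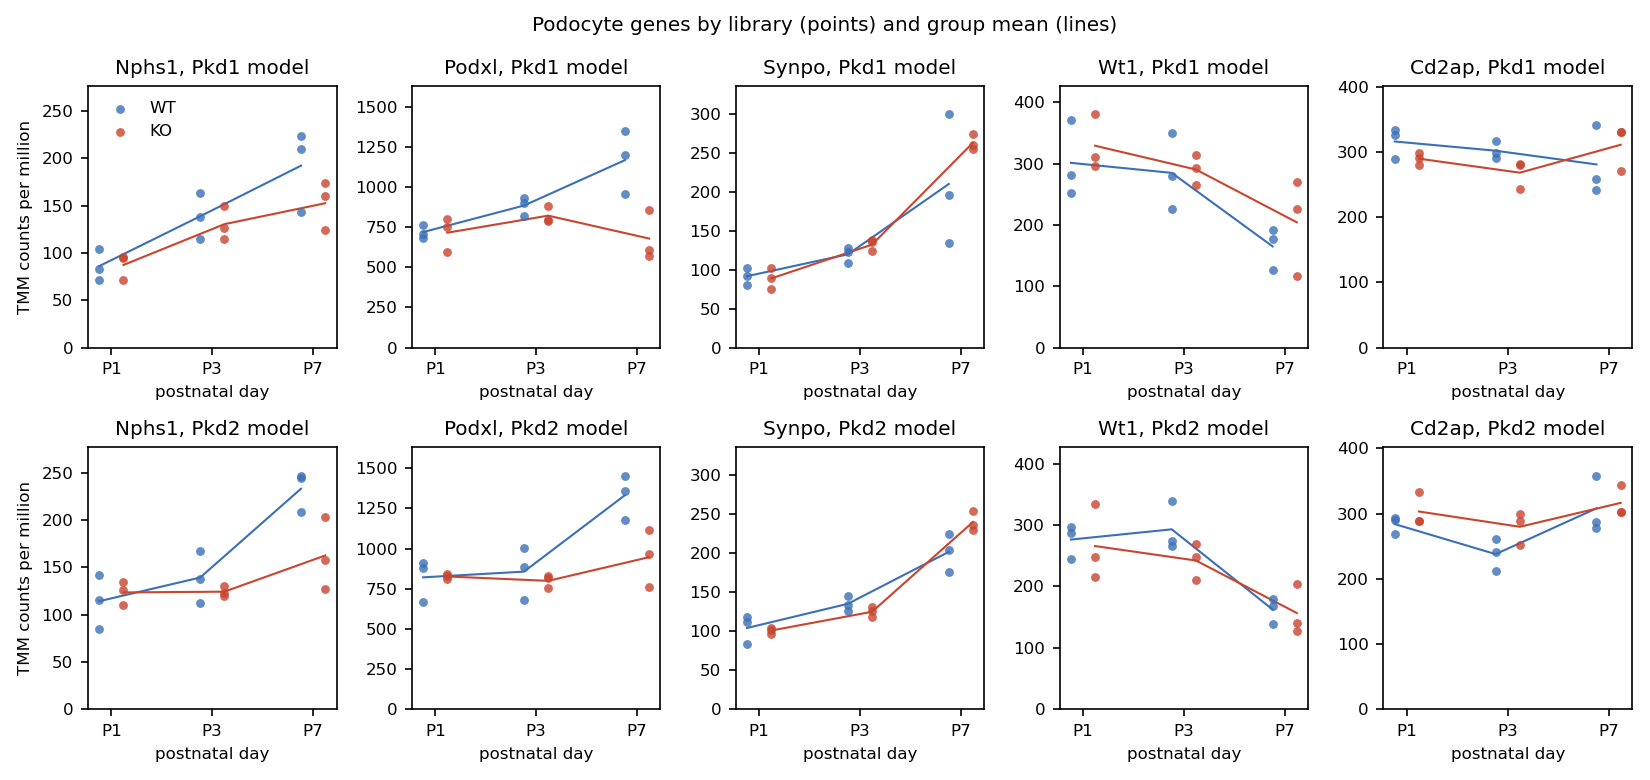
TMM-scaled CPM of the 5 measured members in every library by postnatal day, with Pkd1 kidneys above and Pkd2 kidneys below, WT in blue and KO in red, points for kidneys and lines for group means. Podxl climbs to P7 in WT kidneys, from means of 719.5 and 820.7 CPM to 1167 and 1332, Nphs1 climbs in WT and in Pkd1 KO kidneys, and Synpo climbs and Wt1 declines in both genotypes.

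Between P1 and P3 the WT kidneys gave 0 of 5 members called in either model, where 0.12% and 0.0317% of transcripts were called. At an unadjusted p under 0.05, 12% and 15% of the transcripts passed. In Pkd1 WT kidneys Nphs1, Podxl and Synpo had log2 changes of 0.69, 0.30 and 0.38 from P1 to P3, which did not pass. In Pkd2 WT kidneys the changes were 0.29, 0.06 and 0.38, and these did not pass either. DESeq2, an alternative test, also called 0 members in both WT comparisons.

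KO kidneys were then followed over the same days. Y-linked counts were absent from every Pkd1 KO kidney at P1 and present in every one at P3 and P7. In Pkd2 KO kidneys they were absent at P1 and P3 and present in every kidney at P7. Sex and day therefore cannot be told apart in the KO courses, except for P3 against P1 in Pkd2 KO kidneys. A Y-linked covariate could not be fitted in either KO course. In Pkd1 KO kidneys 2 of 5 members were higher at P7 than at P1 and 1 was lower, against 20.8% and 21.2% of all transcripts (42% in either direction). In Pkd2 KO kidneys 1 was higher and 1 lower, against 14.4% and 11.7% (26.1% in either direction). Synpo had the smallest adjusted p in both, from 75.1, 88.7 and 102.2 CPM to 255.3, 259.3 and 273.8 in Pkd1 KO and from 96.2, 101.5 and 104.6 to 253.5, 230.2 and 236.3 in Pkd2 KO kidneys. The kidneys of a group were close together, and the log2 changes were 1.57 (SE 0.11, adjusted p = 8.47e-06) and 1.25 (SE 0.06, adjusted p = 1.23e-06 in edgeR's test). Synpo was also the single member that rose by P3, by 0.58 on the log2 scale (SE 0.11, adjusted p = 0.0325) in Pkd1 KO and 0.31 (SE 0.06, adjusted p = 0.0331) in Pkd2 KO kidneys, where 0.894% and 1.64% of all transcripts were called higher and 1.3% and 2.56% in either direction. With single kidneys left out, the P3 call remained in 1 of 6 fits of either model, that without P1 replicate 3 in Pkd1 KO and that without P3 replicate 1 in Pkd2 KO, and adjusted p reached 0.162 and 0.110. In Pkd1 KO the Synpo call was also lost with the replicate number as a block (adjusted p = 0.0502) and after correction for GC content and length (0.0762).

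Podxl did not pass this test in KO kidneys. The Pkd1 KO kidneys had 597.2, 800.2 and 749.6 CPM at P1 and 569.6, 608.7 and 859.5 at P7, which overlap (log2 change -0.08, SE 0.16, adjusted p = 0.729 in edgeR's test). The Pkd2 KO kidneys had 827.6, 841.6 and 809.0 CPM at P1 and 1113, 967.4 and 758.7 at P7, which overlap as well (log2 change 0.20, SE 0.11, adjusted p = 0.230). Nphs1 rose in Pkd1 KO kidneys, from a mean of 87.4 to 152.7 CPM (log2 change 0.81, SE 0.15, adjusted p = 0.00218), and in Pkd2 KO kidneys went from 123.4 to 162.4 CPM without passing (log2 change 0.40, SE 0.14, adjusted p = 0.0637). Wt1 fell in both, by 0.69 and 0.76 on the log2 scale (adjusted p = 0.0377 and 0.0170), but the calls were lost without P1 replicate 1, 2 or 3 or P7 replicate 3 in Pkd1 KO (adjusted p up to 0.109) and without P1 replicate 1 or P7 replicate 2 or 3 in Pkd2 KO (up to 0.0647). Of 8 nephron progenitor genes tested, 6 fell in Pkd1 KO and 5 in Pkd2 KO kidneys, where 21.2% and 11.7% of all transcripts were lower, among them Sall1 by 1.42 and 1.32. The WT and KO courses were not compared by which passed and which did not. The difference itself was tested as the interaction of genotype and day.

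KO and WT kidneys of the same day were compared next. At P1 and P3, 0 of 5 members passed in either model. There 0 of 12527 transcripts were called at P1 and 1 at P3 (0.00798%) in the Pkd1 model, and 0 of 12633 on both days in the Pkd2 model, while 1.29%, 14.1%, 5.6% and 4.46% had an unadjusted p under 0.05. The largest member difference on these days was -0.28 for Wt1 in Pkd2 kidneys at P3 (SE 0.13, adjusted p = 0.931 in edgeR's test). DESeq2 also called 0 members in all 4 comparisons, with 2, 248, 33 and 38 transcripts called.

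At P7 Podxl fell in Pkd1 KO kidneys. It stood at 569.6, 608.7 and 859.5 CPM in KO and at 1350, 954.5 and 1198 CPM in WT kidneys, with no overlap. The means were 679.2 ± 157.3 and 1167 ± 199.4 CPM (n = 3 each), and the log2 fold change was -0.78 (SE 0.19, adjusted p = 0.0355 in edgeR's test), a KO level 0.582 times that of WT. It was 1 of 5 members called, where 13.7% of all transcripts were called and 7.54% were called lower. The call was lost when KO replicate 1, KO replicate 2 or WT replicate 1 was left out, with adjusted p up to 0.136. It was also lost with the replicate number as a block (-0.79, adjusted p = 0.0557), after each library was corrected for the GC content and length of the transcripts, which gave -0.61 and adjusted p = 0.0660, and with Y-linked counts as a covariate in a fit of 18 libraries, which gave -0.81 and adjusted p = 0.244.

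The other 4 members did not pass in Pkd1 kidneys at P7. Nphs1 had 123.9, 160.5 and 173.6 CPM in KO and 209.9, 143.9 and 223.4 in WT kidneys, where WT replicate 2 lay below 2 of the KO kidneys (log2 fold change -0.33, SE 0.19, adjusted p = 0.255 in edgeR's test). Synpo was on the other side, at 262.8 ± 9.76 CPM in KO against 209.8 ± 83.6 in WT (log2 fold change 0.33, SE 0.25, adjusted p = 0.391). This value turned on single WT kidneys, being 0.67 and called without WT replicate 3 (adjusted p = 0.0232) and 0.09 without WT replicate 2 (adjusted p = 0.784). Wt1 and Cd2ap differed by 0.31 (SE 0.29) and 0.15 (SE 0.15) on the log2 scale, with adjusted p = 0.484 and 0.533. The median of the 5 members was 0.15, beside -0.01 over all transcripts tested.

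In Pkd2 kidneys at P7, 0 of 5 members passed, where 13.9% of all transcripts were called (7.82% higher and 6.06% lower) and 29.6% had an unadjusted p under 0.05. DESeq2 called 2 of the 5, Podxl and Nphs1, where it called 2254 of 12633 transcripts against 1753 in edgeR's test. Podxl had 1113, 967.4 and 758.7 CPM in KO and 1361, 1455 and 1181 in WT kidneys, and no KO kidney reached the lowest WT kidney (log2 fold change -0.49, SE 0.14, adjusted p = 0.0543 in edgeR's test, 0.00106 in DESeq2). Nphs1 had 202.8, 157.7 and 126.8 CPM in KO and 244.2, 247.0 and 208.0 in WT kidneys, again without overlap (log2 fold change -0.52, SE 0.16, adjusted p = 0.0625 in edgeR's test, 0.00315 in DESeq2). Both lie at the threshold, and over the fits with other settings adjusted p ran from 0.00106 to 0.0571 for Podxl and from 0.00315 to 0.0756 for Nphs1. Synpo did not overlap either, but upwards, at 253.5, 230.2 and 236.3 CPM in KO against 204.6, 224.7 and 175.7 in WT kidneys (log2 fold change 0.25, SE 0.09, adjusted p = 0.107). Wt1 and Cd2ap differed by -0.05 (SE 0.17) and 0.04 (SE 0.11). Without WT replicate 3, the P7 kidney that lacks Y-linked counts, the log2 fold changes of Podxl and Nphs1 were -0.57 and -0.60, with adjusted p = 0.0290 and 0.03683. Both were also called without KO replicate 1, at -0.62 and -0.70. Neither was called without any of the other 4 kidneys, and without KO replicate 3 they were -0.35 and -0.36 (adjusted p = 0.118 and 0.138).

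**Figure D2:**
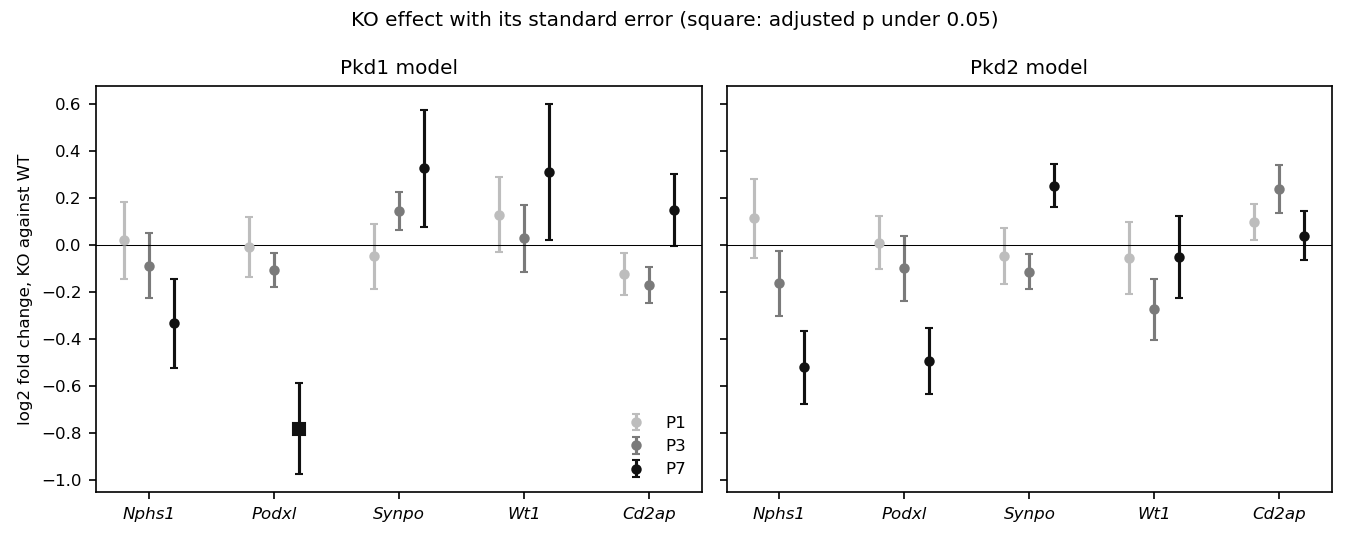
Log2 fold change of KO against WT with its standard error for the 5 members at P1, P3 and P7 (light to dark), with Pkd1 on the left, Pkd2 on the right and a square where the adjusted p is under 0.05. Podxl at P7 in the Pkd1 model, at -0.78, is the one square, and the P7 values of Podxl and Nphs1 lie below 0 in both models while those of Synpo lie above it.

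Whether the KO effect itself changed with age was tested as an interaction. For Podxl in the Pkd1 model the effect at P7 minus that at P1 was -0.77 on the log2 scale (SE 0.22, adjusted p = 0.0380 in edgeR's test), 1 of 5 members, where 7.75% of all transcripts were called and 4.1% were called lower. The KO effect was -0.01 at P1 and -0.78 at P7. In the Pkd2 model 0 of 5 members passed, where 1.3% of transcripts were called, and Podxl and Nphs1 had differences of -0.50 (SE 0.21, adjusted p = 0.262) and -0.63 (SE 0.26, adjusted p = 0.251). DESeq2 called 0 members there. The interaction of Podxl in the Pkd1 model was lost after the correction for GC content and length (-0.60, adjusted p = 0.0955), with Y-linked counts as a covariate (-0.83, adjusted p = 0.880) and without any 1 of 7 of the 12 libraries, with adjusted p up to 0.113. These were WT replicates 1, 2 and 3 and KO replicate 2 at P1, and KO replicates 1 and 2 and WT replicate 1 at P7.

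The KO effects of the 2 models at P7 were compared directly. The Pkd1 effect minus the Pkd2 effect was -0.27 for Podxl (SE 0.26, adjusted p = 0.625), 0.20 for Nphs1 (SE 0.27, adjusted p = 0.734) and 0.09 for Synpo (SE 0.30, adjusted p = 0.897 in edgeR's interaction test). Wt1 and Cd2ap gave 0.37 (SE 0.38) and 0.13 (SE 0.20). Thus 0 of 5 members and 0 of 12343 transcripts passed, and 17.3% of transcripts had an unadjusted p under 0.05. DESeq2 called 406 transcripts, with 0 members among them. The SEs of 0.20 to 0.38 are as large as most of these differences, so a difference between the models of that size could not be detected here.

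Members were also set against each other within a library, where the scaling of the library cancels. These ratios were chosen after the values were seen and are given without a test. The log2 ratio of Podxl counts to Synpo counts was 2.90 to 3.14 in Pkd1 WT and 2.88 to 3.17 in Pkd1 KO kidneys at P1. At P3 it was 2.89, 2.92 and 2.86 in WT and 2.67, 2.68 and 2.56 in KO kidneys. At P7 it was 2.79, 2.83 and 2 in WT and 1.16, 1.23 and 1.65 in KO kidneys, so that every KO kidney lay below every WT kidney. In the Pkd2 model it was 2.73, 2.70 and 2.75 in WT and 2.13, 2.07 and 1.68 in KO kidneys at P7, after 2.96 to 3.00 and 2.95 to 3.10 at P1 and an overlapping 2.35 to 2.81 and 2.66 to 2.69 at P3. The ratio of Nphs1 to Synpo behaved alike at P7, with means of -0.07 in WT and -0.80 in KO of the Pkd1 model and 0.21 and -0.59 in the Pkd2 model. The ratio of Podxl to Nphs1 separated the genotypes in the Pkd1 model, 2.42 to 2.73 in WT and 1.92 to 2.31 in KO kidneys, and overlapped in the Pkd2 model, 2.48 to 2.56 and 2.46 to 2.62.

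**Figure D3:**
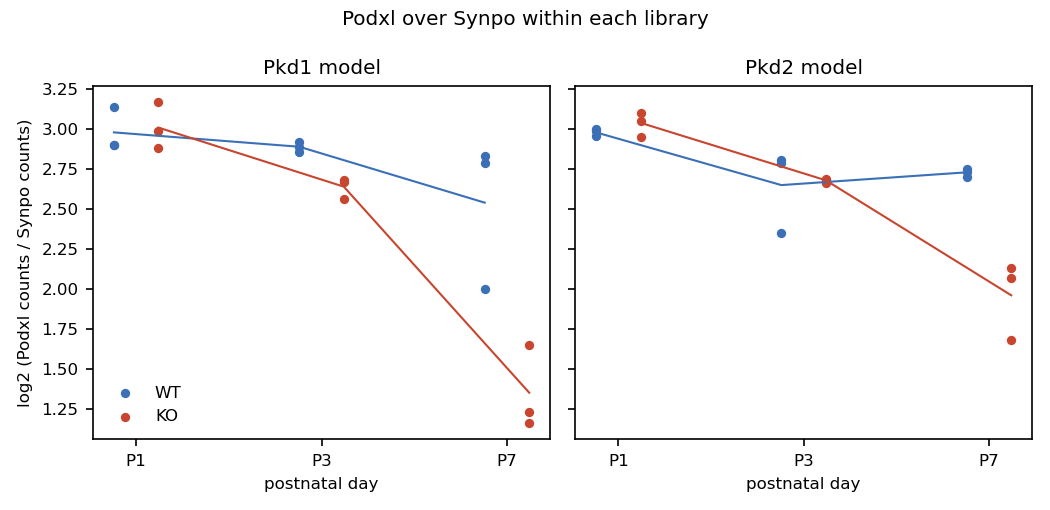
Log2 ratio of Podxl to Synpo counts in each library by postnatal day, with WT in blue, KO in red, points for kidneys and lines for group means. WT and KO lie together at P1 and apart at P7, and at P3 they are apart in the Pkd1 model and overlap in the Pkd2 model, while at P7 KO kidneys reach at most 1.65 in the Pkd1 and 2.13 in the Pkd2 model against at least 2 and 2.70 in WT kidneys.

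Other genes of the podocyte were counted from lists of 53 genes, of which 44 were tested in the Pkd1 and 43 in the Pkd2 model. As the WT kidney matured from P1 to P7, 8 rose and 2 fell in the Pkd1 model and 12 rose and 2 fell in the Pkd2 model. These are 22.7% and 32.6% of the tested list, beside 17.9% and 19.2% of all transcripts, and with Y-linked counts as a covariate 0 of the 10 Pkd1 calls remained. The medians were 0.19 and 0.31 on the log2 scale, beside 0.01 over all transcripts in both. Ddn, which encodes the cytoskeletal protein dendrin, rose by 1.495 (SE 0.26) and 1.31 (SE 0.15) in the 2 models and Clic5, a foot process protein bound to ezrin, by 1.00 in both (SE 0.16 and 0.21). Sema3g, a secreted semaphorin, rose by 0.91 and 0.64 (adjusted p = 0.00598 and 0.00932 in edgeR's test). The transcription factor Tcf21 rose by 0.72 in the Pkd1 model and had 0.34 (SE 0.16, adjusted p = 0.184) in the Pkd2 model. The genes that fell were Bmp7 and Nck2 in the Pkd1 model, by 0.42 and 0.30, and Anln and Foxc2 in the Pkd2 model, by 0.98 and 0.47. Anln encodes anillin, which dividing cells use in cytokinesis. In KO kidneys 13 rose and 5 fell in the Pkd1 model and 17 rose and 4 fell in the Pkd2 model. Sex and day cannot be told apart in these KO comparisons. The called share of the list was 40.9% in Pkd1 KO, near the 42% of all transcripts, and 48.8% in Pkd2 KO, beside 26.1%. Ddn had the smallest adjusted p of those that rose in both, at log2 changes of 1.49 and 1.28.

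At P7 in the Pkd1 model 7.54% of all transcripts were called lower and 13.7% in either direction. Of these 44 podocyte-list genes 7 were lower in KO than in WT kidneys and 0 were higher, with a median of -0.13. The share of the list called in either direction was thus near that of all transcripts. The 4 with the smallest adjusted p were Thsd7a, a foot process membrane protein, at 34.9 against 56.1 CPM (log2 fold change -0.69, SE 0.14, adjusted p = 0.0210 in edgeR's test), Sema3g at 95.6 against 196.1 CPM (-1.04, SE 0.21), Col4a4, a chain of the mature basement membrane collagen, at 70.5 against 178.9 CPM (-1.34, SE 0.30), and Slc9a3r2, a scaffold that links podocalyxin to ezrin, at 10.8 against 24.3 CPM (-1.16, SE 0.26). By list, the calls were 1 of 10 for the slit diaphragm, 2 of 3 for the apical membrane and foot process, 0 of 8 for the actin cytoskeleton, 0 of 7 for transcription factors, 2 of 9 for basement membrane and adhesion and 2 of 7 for secreted and other proteins. With Y-linked counts as a covariate, 0 of the 44 passed. The counts are of whole kidneys, and the cell source of the lower genes was not tested.

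In the Pkd2 model at P7, 7 of 43 were higher and 3 lower in KO kidneys, beside 7.82% and 6.06% of all transcripts, with a median of -0.19. The higher genes were mostly widely expressed parts of the cytoskeleton. Iqgap1, a scaffold for actin, had 547.7 against 404.4 CPM (log2 fold change 0.44, SE 0.06, adjusted p = 0.00316 in edgeR's test), Anln 79.3 against 40.6 (0.96, SE 0.17), the formin Inf2 103.9 against 78.6 (0.40, SE 0.09) and the integrin chain Itgb1 1418 against 1140 (0.32, SE 0.08). These genes are also expressed in many other kidney cells, and their source was not tested. The lower genes were Foxc1, a transcription factor of the developing podocyte (-0.42, SE 0.08), Thsd7a (-0.45, SE 0.11, adjusted p = 0.0353) and Efnb1, an ephrin ligand (-0.21, SE 0.05). By list, 5 of 8 actin cytoskeleton genes, 1 of 10 slit diaphragm and 1 of 9 basement membrane and adhesion genes were higher, 1 of 6 transcription factors and 2 of 7 secreted and other genes were lower, and 0 of 3 apical membrane and foot process genes passed. At P1 and P3, 0 of the listed genes passed in either model.

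Other compartments moved at P7 as well. Over all transcripts 7.54% were lower and 6.2% higher in the Pkd1 model and 6.06% lower and 7.82% higher in the Pkd2 model, and with Y-linked counts as a covariate 6 transcripts in all passed in the Pkd1 model. Proximal tubule genes were lower in KO kidneys for 6 of 6 tested in both models, and the summed level of that list was 1420 to 2504 CPM in KO against 4451 to 5184 in WT kidneys of the Pkd1 model and 3081 to 3230 against 4555 to 5604 in the Pkd2 model. Collecting duct principal cell genes were lower for 3 of 4 in both models. Endothelial genes were lower for 1 of 6 in the Pkd1 model (16.7%, beside 13.7% of all transcripts called) and for 5 of 7 in the Pkd2 model, with summed levels of 816.9 to 1006 against 1115 to 1353 CPM and 865.5 to 1021 against 1196 to 1457 CPM, so that the genotypes did not overlap in either model for these genes of a cell type that also makes Podxl. Tek and Pecam1, defining markers of endothelium, were listed at 0. The part of endothelium in the Podxl values, and of the tubular genes in the values of the members, was not tested. Mesangial genes were higher for 2 and lower for 1 of 5 in the Pkd1 model and higher for 2 of 5 in the Pkd2 model, Des being higher in both (0.70 and 0.62 on the log2 scale). Parietal epithelial (0 of 4) and nephron progenitor genes (0 of 8) did not pass in either model, and leukocyte genes passed for 0 of 4 and 1 of 4.

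**Figure D4:**
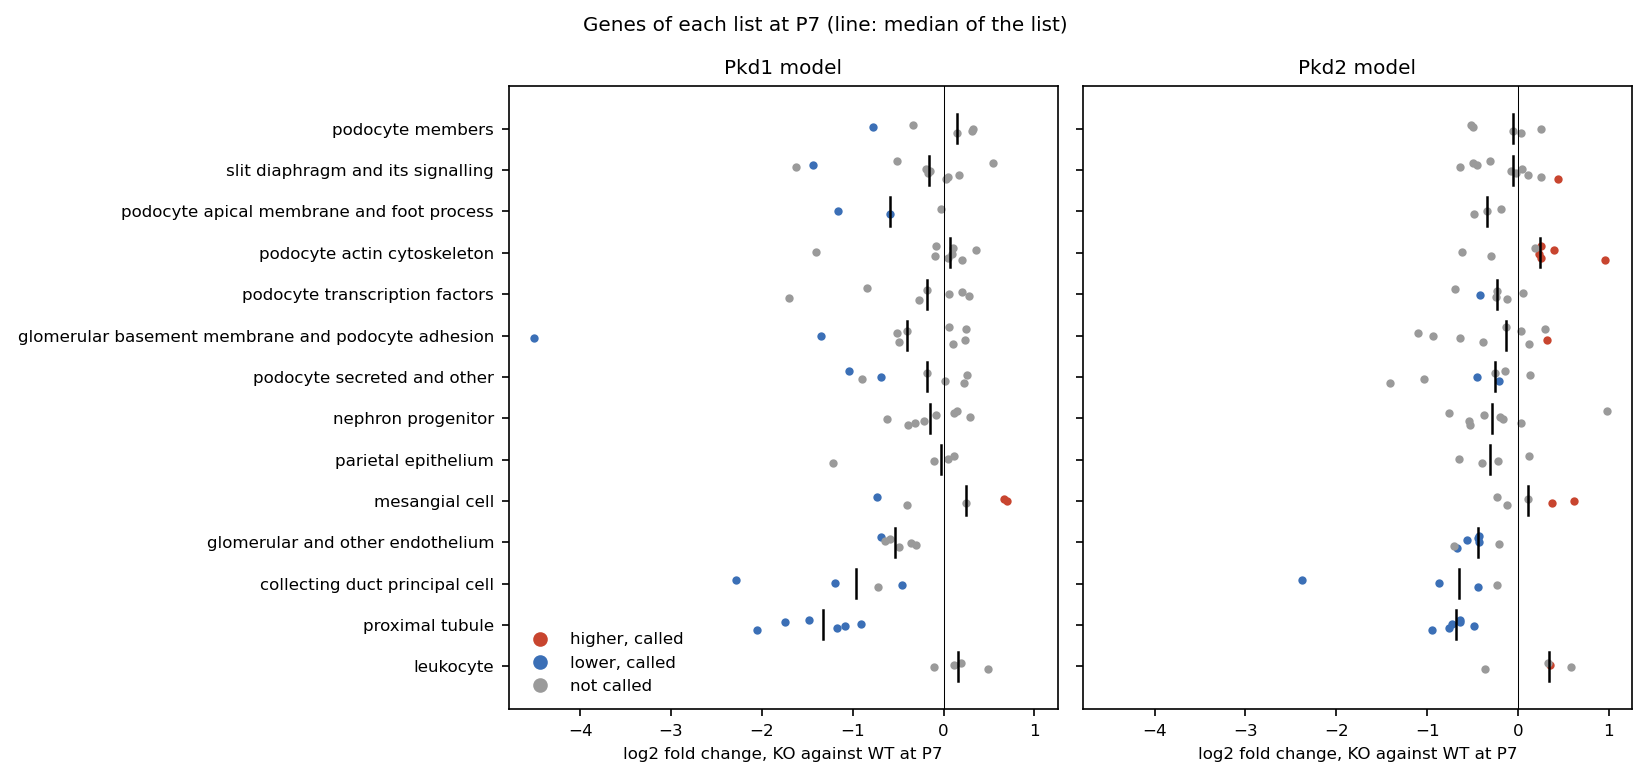
Log2 fold change of KO against WT at P7 for each tested gene of the podocyte lists and of the other cell types, with a black line at the median of a list and colour for calls at an adjusted p under 0.05. The members lie on both sides of 0, with medians of 0.15 and -0.05 in the Pkd1 and Pkd2 models, while all proximal tubule genes lie below it, with medians of -1.33 and -0.68.

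Within groups, kidneys that were high in one podocyte gene tended to be high in the others. After each group mean was removed, Nphs1 and Podxl had a Pearson r of 0.81 over the 36 libraries, Nphs1 and Synpo 0.67, and Nphs1 and Wt1 0.61. Podxl and Synpo had 0.56, Podxl and Wt1 0.51, and Synpo and Wt1 0.36. Wt1 thus ran with these podocyte genes within a group, most weakly with Synpo. Over the levels of all 36 libraries, however, the r of Wt1 with Nphs1 was -0.46, since the days moved them apart. Cd2ap was the exception, with r between -0.50 and -0.38 against each of the other 4. The counts are of whole kidneys, and the cells that the Cd2ap counts come from were not tested. Both values of a pair come from one library and share its scaling, so these values are descriptions only.

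**Figure D5:**
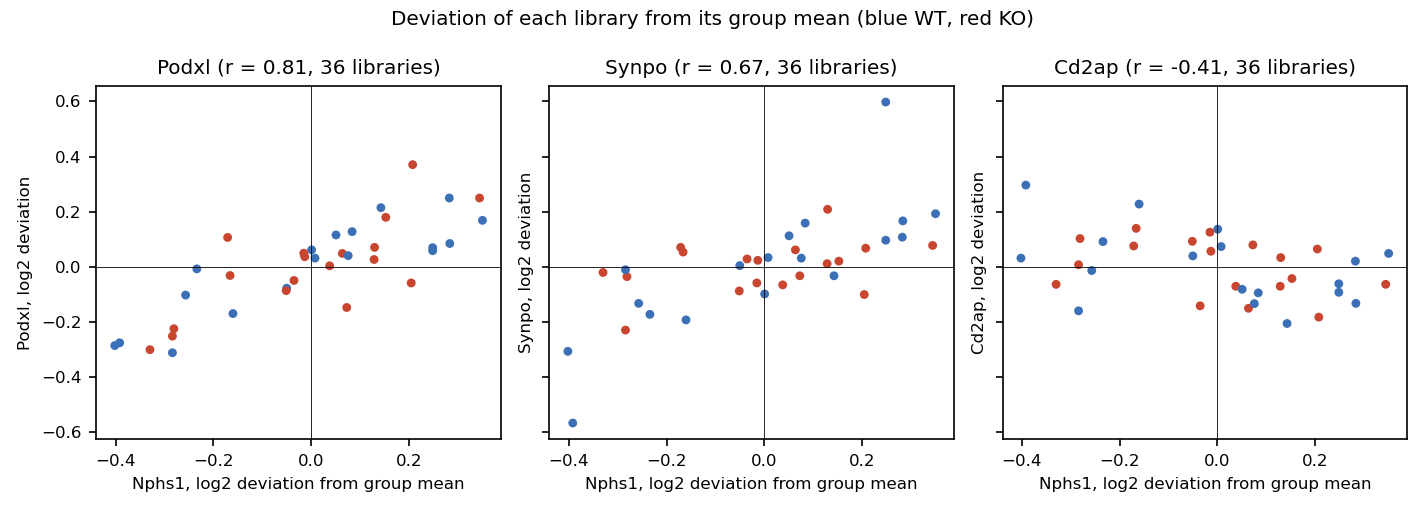
Deviation of each of the 36 libraries from its group mean (log2 scale), with Nphs1 on the horizontal axis against Podxl, Synpo and Cd2ap, WT in blue and KO in red. Podxl and Synpo rise with Nphs1 (r = 0.81 and 0.67) and Cd2ap declines (r = -0.41).

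Likeness to the members was taken as Pearson's r with the mean of the 5 standardised log2 profiles, over the other genes that passed the filter in both models. Among the 10 genes most like the members in level were Tmem52b (r = 0.88), Clic5 (0.88), Glb1l (0.83), Ddn (0.83), Dpp4 (0.82), Myo7b (0.81), Ildr2 (0.80) and Pdzd3 (0.80), over 36 libraries. Among the 10 most alike in deviations from the group means were Tmem52b (0.88), Clic5 (0.86), Crb2 (0.86), Ddn (0.85), Trabd2b (0.85), Dpp4 (0.84), Pcsk4 (0.84) and Kirrel2 (0.83). Of these 8 in each ranking, 2 and 3 were on the podocyte lists, and 4 genes appeared in both, namely Tmem52b, Clic5, Ddn and Dpp4.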

How the data were processed

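Whole-kidney RNA was sequenced in 36 libraries. The deposited values are raw counts per RefSeq transcript, which the authors made by base calling with CASAVA 1.8.2, alignment to mm10 with TopHat 2.1.0 and counting with HTSeq at its default options. Replicates were not pooled. Libraries were grouped by the labels, and 0 columns were without a sample. Library totals (7179152 to 15850818 counts, median 13143336) set the precision of low transcripts.

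Of 29996 rows, 28974 were given a symbol from RefSeq (GRCm38.p6), and for each gene the row with the highest mean count was used. A transcript was kept in a model if 3 or more of its 18 libraries held 10 or more counts, and was tested with edgeR 4.0.16 (R 4.3.3) by the quasi-likelihood F-test with TMM factors and Benjamini-Hochberg adjustment over all transcripts. KO and WT were compared in fits of 6 libraries, days in fits of 9, the interaction of genotype and day in fits of 18 and that of genotype and model in a fit of 12. SE was the log2 fold change divided by the square root of F. The scripts were tested on simulated data. Alternatives were DESeq2 1.42.0, RLE factors, other filters, summed transcripts, a replicate block, a GC content and transcript length correction, all 18 libraries in one fit, Y-linked counts (4 genes, at least 100 counts) as a covariate, and leaving out each library. Replicates of a group differed by more than sampling noise in all 36 pairs (chi-square per transcript of 5.15 or more). The labels do not state what a replicate number shares. Deviations of same-numbered KO and WT libraries correlated above 0.1 in all 3 pairs only in the Pkd1 model at P1 (0.357, 0.211 and 0.527 across transcripts), where the block changed no call of a member.

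The members and lists were chosen with earlier results of these data known. Named genes were the members, Pkd1, Pkd2, the 4 smallest adjusted p in each direction among called podocyte-list genes in the P7 comparisons, the 10 genes most like the members by each measure, and at most 2 genes of each other list. Six2, Tek, Pecam1, Vegfa and Des were named outside this rule, after their values were seen. Some genes that the rule names are not reported here.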

Additional observations from a re-analysis of the deposited data

Results flagged for a closer look

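The KO effect on Podxl differed between P7 and P1 in the Pkd1 model by -0.773 on the log2 scale (SE 0.215, adjusted p = 0.0380 in edgeR's interaction test), since KO and WT stood at 715.7 and 719.5 CPM at P1 and at 679.2 and 1167 CPM at P7. Every P7 KO kidney was below every P7 WT kidney, and the P1 kidneys overlapped. Y-linked counts were present in all 3 KO and 0 of 3 WT kidneys at P7, so genotype and sex cannot be told apart there. Podxl was 1 of 5 members, where 7.75% of all transcripts passed. The call remained in 5 of the 12 fits that left out a library, with adjusted p up to 0.113 in edgeR's test. It was lost after correction for GC content and length and with the Y-linked covariate (adjusted p = 0.88).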

How the results depend on the processing

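No called value reversed its direction under the alternatives run. RLE factors and counts summed over the transcripts of a gene changed no call. The count of members called between KO and WT at P7 in the Pkd1 model was 1. It became 0 with the replicate block (Podxl -0.79, adjusted p = 0.0557), after correction for GC content and length and with Y-linked counts as a covariate, and ran from 0 to 2 over the fits that left out a library. In the Pkd2 model it was 0 and became 2 with DESeq2, with no filter, with at least 10 counts in every library and with the block, 1 with 18 libraries in one fit and 1 with the Y-linked covariate, and ran from 0 to 2 over the fits that left out a library. For P3 against P1, the block gave 1 in Pkd1 WT in place of 0 and 0 in Pkd2 KO in place of 1, and in Pkd1 KO the count of 1 became 2 with DESeq2 and 0 after correction for GC content and length, and with the block Nphs1 was called in place of Synpo. Leaving out a library gave 0 to 1 in both KO series. For P7 against P1, the count of 4 in Pkd1 WT became 0 with the Y-linked covariate and ran from 3 to 5 over the fits that left out a library, and the others ran from 2 to 3 (Pkd1 KO), 3 to 4 (Pkd2 WT) and 1 to 3 (Pkd2 KO). The interaction in the Pkd1 model went from 1 to 0 with the Y-linked covariate and ran from 0 to 2. The other podocyte genes called at P7 between KO and WT went from 7 to 2 with the block and to 0 with the Y-linked covariate in the Pkd1 model, and from 10 to 0 with that covariate for P7 against P1 in Pkd1 WT. Over the fits that left out a library they ran from 0 to 7 and 2 to 11 between KO and WT and from 5 to 10 and 6 to 14 between days in WT, for Pkd1 and Pkd2. In the Pkd1 model the Y-linked covariate rests on the WT kidneys at P1 alone. Calls lost with it do not settle the part of sex. The causes were not tested.

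Over all transcripts, the 1721 calls between KO and WT at P7 in the Pkd1 model became 2763 with DESeq2, 712 with the block, 3882 with 18 libraries in one fit and 6 with the Y-linked covariate. In the Pkd2 model the 1753 calls at P7 became 2254 with DESeq2 and 1485 with the block. The interaction with day had 971 calls in the Pkd1 model, which became 1651 with DESeq2 and 0 with the covariate, and 164 in the Pkd2 model, which became 491 with DESeq2 and 78 with the block. For P3 against P1 the calls were 15 and 163 in Pkd1 WT and KO and 4 and 323 in Pkd2 WT and KO, and DESeq2 gave 196, 784, 331 and 848. The 163 and 323 became 68 and 107 with the block, the 15 became 57 and the 4 became 13 with no filter, and the 2246 calls for P7 against P1 in Pkd1 WT became 208 with the covariate. After correction for GC content and length Cd2ap rose from P1 to P7 in Pkd1 KO kidneys (0.40, adjusted p = 0.00389) and passed the interaction in the Pkd1 model (0.47, adjusted p = 0.0263). The replicate numbers are not known to pair the libraries, so the block describes a setting only.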

Other observations

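A pair of further genes of the podocyte lists passed the interaction of genotype and day. In the Pkd1 model the KO effect on Slc9a3r2 was lower at P7 than at P1 (log2 difference -1.13, SE 0.30, adjusted p = 0.0322 in edgeR's test), 1 of 44 genes where 7.75% of all transcripts passed, and with Y-linked counts as a covariate 0 of 12527 transcripts passed. In the Pkd2 model the KO effect on Anln was higher at P7 than at P1 (log2 difference 1.04, SE 0.23, adjusted p = 0.0366), 1 of 43 genes where 1.3% of all transcripts passed.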
